A study of Homo sapiens with 6 samples.

Results

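DNA replication and S phase genes are described here across 6 RNA sequencing libraries of U118, an established human cell line whose label calls it a brain astroblastoma line. The group holds 45 genes listed by symbol for their known roles, from origin licensing to E2F control. Each matched 1 Ensembl ID among the 20263 IDs of the count table. The list was chosen with earlier results of these data known. At day 2 of siRNA transfection there was 1 library from wild-type U118 (WT), 1 named siNC, whose genotype is labelled NC and which is taken here as the control siRNA, and 4 with RIPK2 knocked down by siRNA, named siRIPK2_1, siRIPK2_2, siRIPK2_3 and siRIPK2_4. The title of the WT library names no siRNA and does not say whether those cells were transfected. RIPK2 is a kinase that relays signals from NOD receptors, and the study set out to relate its knockdown to the behaviour of the cells. What distinguishes the 4 knockdown libraries (the siRNA sequence, the culture or only the transfection) is not stated, so the spread among them may be technical. The p-values reflect that spread alone, except against WT and siNC together, where the difference between WT and siNC also enters. That comparison treats 2 unlike conditions, WT and siNC, as replicates of 1 control. Both controls are lone libraries.

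Before a cell copies its DNA, the origin recognition complex, CDC6 and CDT1 load the ring-shaped MCM2-7 helicase onto origins, a step called licensing, which geminin (GMNN) blocks by binding CDT1. In S phase, CDC45 and the GINS complex turn MCM2-7 into the active helicase, polymerase alpha with its primase starts each strand, and polymerases delta and epsilon extend it on the sliding clamp PCNA, which the RFC complex loads. Transcription of many of these genes is driven by E2F factors at the passage from G1 into S phase, so that their summed mRNA in a cell population is widely used as a measure of how many cells are cycling. In bulk RNA, fewer cells in S phase and less mRNA per cell cannot be told apart.

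RIPK2 was at 56.8 CPM in WT and 43.4 CPM in siNC, where CPM is the count scaled to library size with TMM factors. It was at 3.86, 11.9, 6.27 and 4.32 CPM in siRIPK2_1 to siRIPK2_4, below both controls in all 4, and siRIPK2_2 kept the most. A 2-sided exact permutation test, with 15 possible arrangements, gave p = 0.0667, the smallest this design allows. Total counts ranged from 33540619 to 45309423 per library, with 13390 to 13823 genes at 10 counts or more. Of 9 astrocyte and glioma markers, GFAP was at 0.532 to 1.09 CPM, AQP4 was at 0 in all 6 libraries, S100B was at 0 in 5 and ALDH1L1 at 0 in 4. The other 5 were expressed: VIM at 3813 to 7572 CPM, CD44 at 224 to 556 CPM, SOX9 at 47.5 to 122 CPM, NES at 18.5 to 73.1 CPM and SLC1A3 at 3.52 to 13.1 CPM. Among macrophage and microglia markers, PTPRC was at 0 to 0.11 CPM, CD14 at 0.219 to 0.715 CPM and ITGAM at 0.0486 to 0.193 CPM. AIF1, TYROBP and C1QA were at 0 in all 6 libraries, while CSF1R was at 1.18 to 3.69 CPM. Endothelial, epithelial and neuronal markers ranged from 0 CPM (KRT20, all 6 libraries) to 6.84 CPM (GAD1 in siRIPK2_1). Among them, the neuronal markers SNAP25 (4.12 to 5.45 CPM) and GAD1 (3.38 to 6.84 CPM) overlapped the range of SLC1A3, as did the epithelial marker CLDN4 (2.2 to 5.1 CPM).

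E2F factors bind short GC-rich elements, and such elements were counted in the RefSeq promoter windows (GRCh38.p14, 250 bases before to 50 bases after a gene's start), because many members had their highest or lowest level in the same library. A window was available for 38 members, and MCM4, MCM5, GINS4, CCNE2, POLD3, RPA2 and RPA3 were not in the table. The words TTTCCCGC, TTTCGCGC, TTTGCCGC and TTTGGCGC were searched on both strands, and words on opposite strands can overlap. At least 1 of them was found in 23 of the 38 members (60.5%), against 733 of 11342 tested genes with a window (6.46%). Counted per window and not per gene, the share was 3.31% of all 35116 windows. The members were listed for known roles that include E2F control, so their high share follows from that choice and is no result of these data. Among the 68 other replication and G1/S genes, 16 of 54 with a window held one (29.6%). A CCAAT box, searched as CCAAT on both strands, was in 23 of the 38 members (60.5%) and in 43.3% of tested genes. A match describes the sequence only and is no evidence of binding in these cells.

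Windows of 30 bases are shown for the 12 members that held an element and stood more than 1.5-fold lower in siRIPK2_2 than the median of the other 5 libraries, the main feature of the expression data described next. They are read 5′ to 3′ on the gene's own strand, and capitals mark the element.
PCNA (chr20:5126663-5126692, minus strand): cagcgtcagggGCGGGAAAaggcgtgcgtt
TYMS (chr18:657603-657632, plus strand): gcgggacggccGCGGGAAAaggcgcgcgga
RFC3 (chr13:33818083-33818112, plus strand): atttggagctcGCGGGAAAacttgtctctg
CLSPN (chr1:35769965-35769994, minus strand): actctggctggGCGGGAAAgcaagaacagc
UHRF1 (chr19:4909476-4909505, plus strand): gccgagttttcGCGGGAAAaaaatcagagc
LIG1 (chr19:48170440-48170469, minus strand): acttcacccctTTTCCCGCcctcctcccat
E2F2 (chr1:23531257-23531286, minus strand): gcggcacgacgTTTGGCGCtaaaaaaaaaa
CDC25A (chr3:48188443-48188472, minus strand): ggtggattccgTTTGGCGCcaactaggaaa
GMNN (chr6:24775322-24775351, plus strand): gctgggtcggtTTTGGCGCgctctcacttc
GINS1 (chr20:25407667-25407696, plus strand): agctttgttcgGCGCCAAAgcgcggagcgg
POLA1 (chrX:24693770-24693799, plus strand): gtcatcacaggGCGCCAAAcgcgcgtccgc
POLA2 (chr11:65261898-65261927, plus strand): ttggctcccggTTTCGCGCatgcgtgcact

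The 6 elements shown for PCNA, TYMS, RFC3, CLSPN, UHRF1 and LIG1 carry the same word, TTTCCCGC. It lies on the strand of the gene in LIG1 and on the opposite strand in the others, where it reads GCGGGAAA. UHRF1 also held a different word, TTTCGCGC, in another promoter window, which is not shown. Longer stretches for a pair of members, each the 160 bases directly upstream of the annotated start, show how the elements are arranged. In the helicase gene MCM6 the element is present in 2 copies, and in each copy a word on one strand overlaps another on the opposite strand; PCNA has 1.
MCM6 (chr2:135876444-135876603, minus strand): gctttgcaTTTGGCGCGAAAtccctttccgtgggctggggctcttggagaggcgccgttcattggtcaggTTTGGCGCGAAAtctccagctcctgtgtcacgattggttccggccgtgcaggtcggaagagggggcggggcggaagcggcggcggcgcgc
PCNA (chr20:5126623-5126782, minus strand): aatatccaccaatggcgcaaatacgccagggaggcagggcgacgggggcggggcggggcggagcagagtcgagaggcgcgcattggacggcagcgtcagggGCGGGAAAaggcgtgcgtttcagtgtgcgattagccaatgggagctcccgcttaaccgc

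In the replication genes, siRIPK2_2 and siRIPK2_1 stood furthest from the rest of the 6 libraries, controls included, and in opposite directions. The library siRIPK2_2 was the lowest of the 6 for 33 of the 45 genes, against 17.5% of all 14306 tested genes. It stood below the median of the other 5 libraries for 43 of 45, and more than 1.5-fold below it for 20, against 7.02% of tested genes. By contrast, siRIPK2_1 was the highest of the 6 for 28 of the 45 genes, against 20.8% of tested genes. It stood more than 1.5-fold above the median of the other 5 for 7, against 7.98%. Summed over the members, the level was 3120.7 CPM in siRIPK2_2 and 5463.6 CPM in siRIPK2_1, with 4340.2 to 4745.4 CPM in the remaining 4 libraries. Each of these is a single library, so the differences between them carry no test. Because the members were chosen with earlier results of these data known, their shares beside those of all tested genes are a description only.

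**Figure D1:**
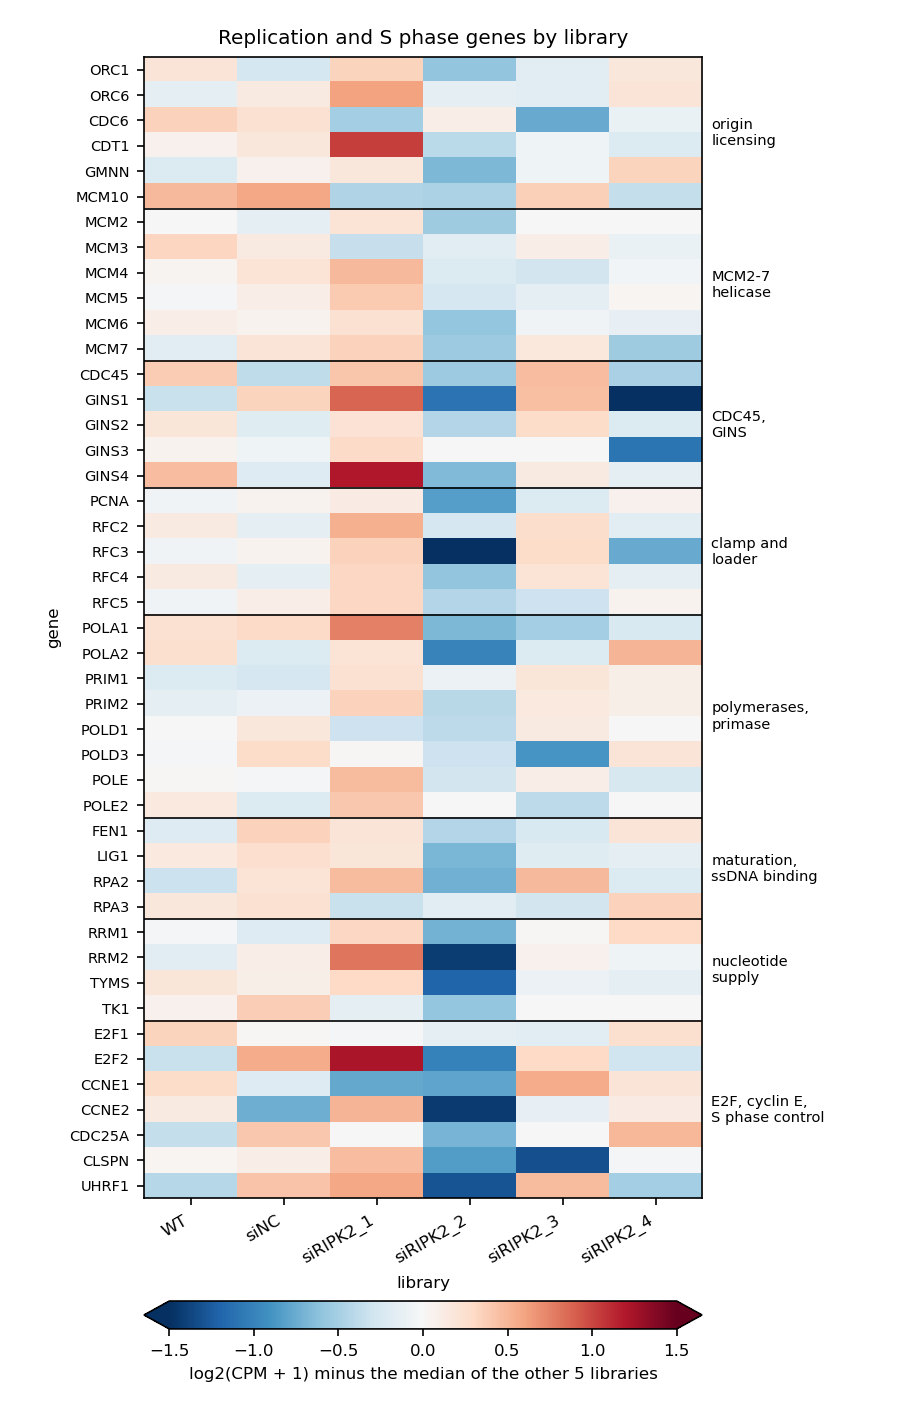
Heat map of the 45 genes (rows, grouped by role) in the 6 libraries (columns); colour gives log2(CPM + 1) minus the median of the other 5 libraries, capped at 1.5 on either side. The siRIPK2_2 column is below 0 for 43 genes, and the siRIPK2_1 column is above 0 for 37.

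The shift in siRIPK2_2 ran through all 8 functional groups. Its median deviation from the other libraries, on the log2(CPM + 1) scale, was -0.96 for nucleotide supply, -0.84 for E2F, cyclin E and S phase control and -0.59 for the clamp and its loader. It was -0.56 for strand maturation and single-strand binding, -0.55 for CDC45 and GINS, -0.45 for origin licensing, -0.39 for MCM2-7 and -0.35 for polymerases and primase. Over all 45 members it was -0.55, and over all tested genes 0.00. In siRIPK2_1 the member median was 0.31, while WT, siNC, siRIPK2_3 and siRIPK2_4 had medians of 0.04, 0.10, -0.00 and -0.04.

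**Figure D2:**
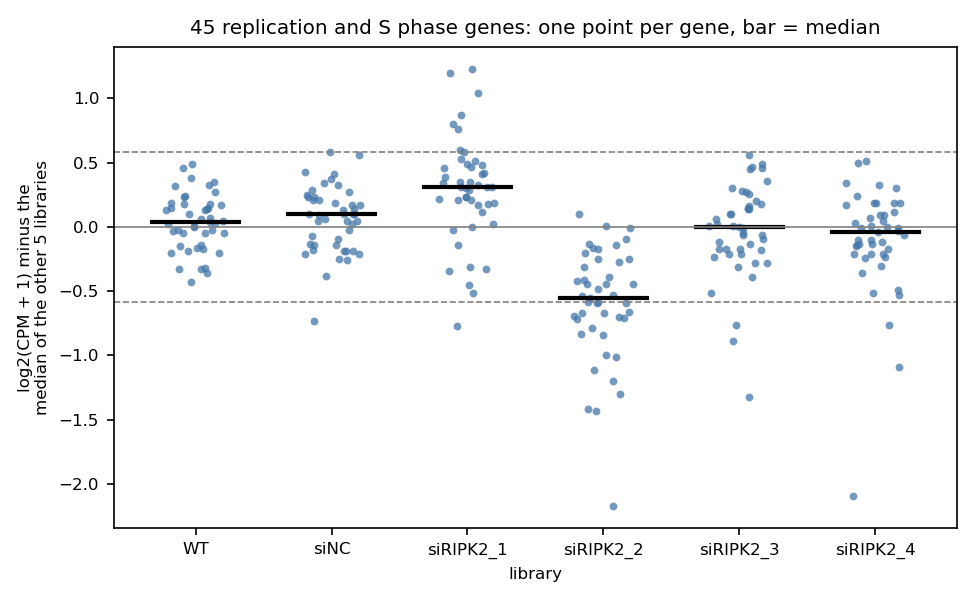
Each point is 1 of the 45 genes; the vertical axis is log2(CPM + 1) in a library minus the median of the other 5, black bars are medians over the genes and dashed lines mark 1.5-fold. The siRIPK2_2 points centre on -0.55 and those of siRIPK2_1 on 0.31, with single genes far below the rest in siRIPK2_2, siRIPK2_3 and siRIPK2_4.

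Pairs of libraries gave the same picture. Between WT and siNC, the members differed by a median absolute log2 value of 0.17, against 0.22 over all tested genes, and 3 of 45 differed by more than 1.5-fold, against 13.5%. Between siRIPK2_1 and siRIPK2_2 that median was 0.72, against 0.32 over all tested genes, and 30 of 45 were past 1.5-fold, against 25.2%. Relative to WT, siRIPK2_2 was lower for 43 of 45 members, 20 of the 45 being past 1.5-fold in either direction, against 11.6% of tested genes. Relative to siNC it was lower for 42, with 18 past 1.5-fold against 20.1%, which is again the larger share among members. The libraries siRIPK2_3 and siRIPK2_4 lay close to WT, with median differences of -0.05 and -0.07.

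Values of the libraries themselves stand beside this order. The library siRIPK2_2 had the highest RIPK2 level of the 4 knockdown libraries, the lowest share of mitochondrially encoded counts (4.1%, against 4.12% to 4.71% in the others), the most genes with at least 10 counts (13823) and the highest TMM factor (1.044, against 0.9566 to 1.022). Its total count, 39439406, was the second highest. Their part in the lower replication levels was not tested. Scaled by total count with no TMM factor, 27 members were lowest in siRIPK2_2 (60%, against 13.6% of tested genes). Under that scaling 30 were highest in siRIPK2_1 (66.7%, against 23.4%). After correction for GC content and length, the counts were 31 (68.9%, against 17.5%) and 30 (66.7%, against 20.2%). Among the 34 members whose exons overlap no other listed gene, 24 were lowest in siRIPK2_2 (70.6%, against 17.5% of all tested genes).

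**Figure D3:**
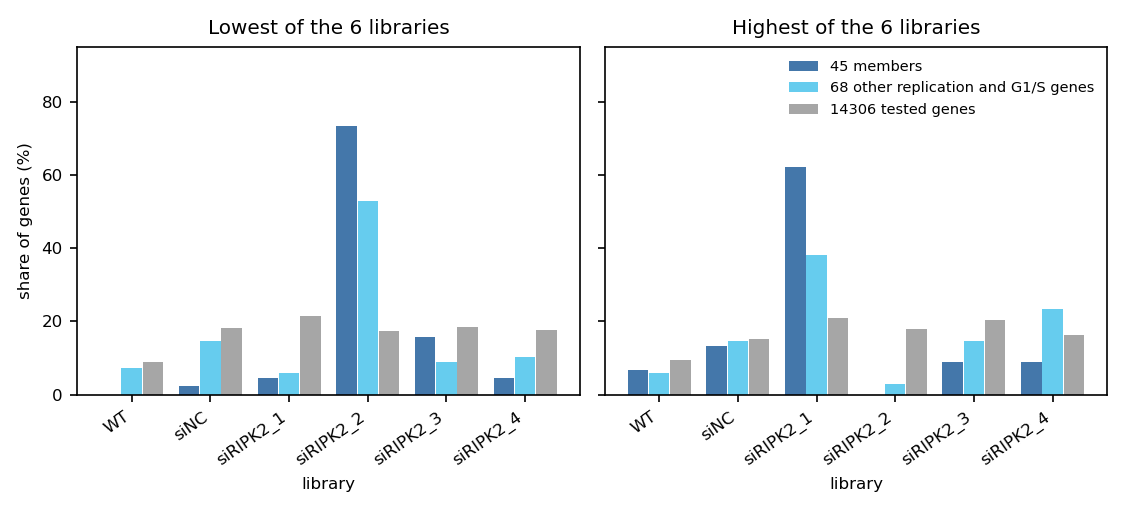
Share of genes (%, vertical axis) whose lowest (left) or highest (right) level of the 6 libraries falls in each library, for the 45 members, 68 other replication and G1/S genes and 14306 tested genes. The members' share is 73.3% for lowest in siRIPK2_2 and 62.2% for highest in siRIPK2_1, where all tested genes have 17.5% and 20.8%.

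Of the 8 groups, the enzymes that supply nucleotides had the lowest median in siRIPK2_2. RRM2 (ENSG00000171848, chromosome 2, 10120698 to 10131419, GRCh38), the regulated subunit of ribonucleotide reductase, was at 181 CPM in WT, 209 CPM in siNC and 341, 75.6, 204 and 195 CPM in siRIPK2_1 to siRIPK2_4. The highest and lowest library thus differed 4.51-fold, whereas siRIPK2_3 and siRIPK2_4 lay between WT and siNC. TYMS (ENSG00000176890, chromosome 18, 657604 to 673578), thymidylate synthase, was at 178 CPM in WT, 168 CPM in siNC and 194, 72.4, 157 and 153 CPM in the knockdown libraries. The exons of TYMS overlap those of ENOSF1, and reads from the shared stretch may not be told apart. The extent of the overlap was not measured. RRM1, the large subunit of the reductase, ran from 101 CPM in siRIPK2_2 to 204 CPM in siRIPK2_1. The thymidine kinase gene TK1 was the exception at the upper end: it was at 162 CPM in WT, 199 CPM in siNC and 141, 103, 155 and 154 CPM in siRIPK2_1 to siRIPK2_4, so all 4 knockdown libraries lay below both controls.

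Among the regulators, E2F2, an activator of S phase transcription, was at 23.2 CPM in WT, 35.3 CPM in siNC and 56.9, 14.1, 29.4 and 23.7 CPM in siRIPK2_1 to siRIPK2_4. Its paralogue E2F1 varied much less, at 76.2 and 60.9 CPM in the controls and 60.3, 55.7, 54.1 and 71.4 CPM in the knockdown libraries, and the groups overlapped. CCNE2, a cyclin E gene whose exons overlap INTS8, was at 28.8 CPM in WT but 16.7 CPM in siNC, while its levels were 37.8, 9.94, 26.2 and 28.5 CPM in siRIPK2_1 to siRIPK2_4. It was the 1 member more than 1.5-fold lower in siNC than the median of the other 5 libraries, against 7.91% of tested genes. The other cyclin E gene, CCNE1, was low throughout, between 2.33 and 6.47 CPM. It was the 1 member more than 1.5-fold lower in siRIPK2_1 than the median of the other 5 libraries, against 9.4%. UHRF1 (ENSG00000276043, chromosome 19, 4903080 to 4962154), which guides maintenance methylation to new DNA, was at 261 CPM in WT, 351 CPM in siNC and 391, 142, 360 and 246 CPM in the knockdown libraries. The phosphatase gene CDC25A, an activator of cyclin-dependent kinases, ran from 18.3 CPM in siRIPK2_2 to 43.4 CPM in siRIPK2_4.

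**Figure D4:**
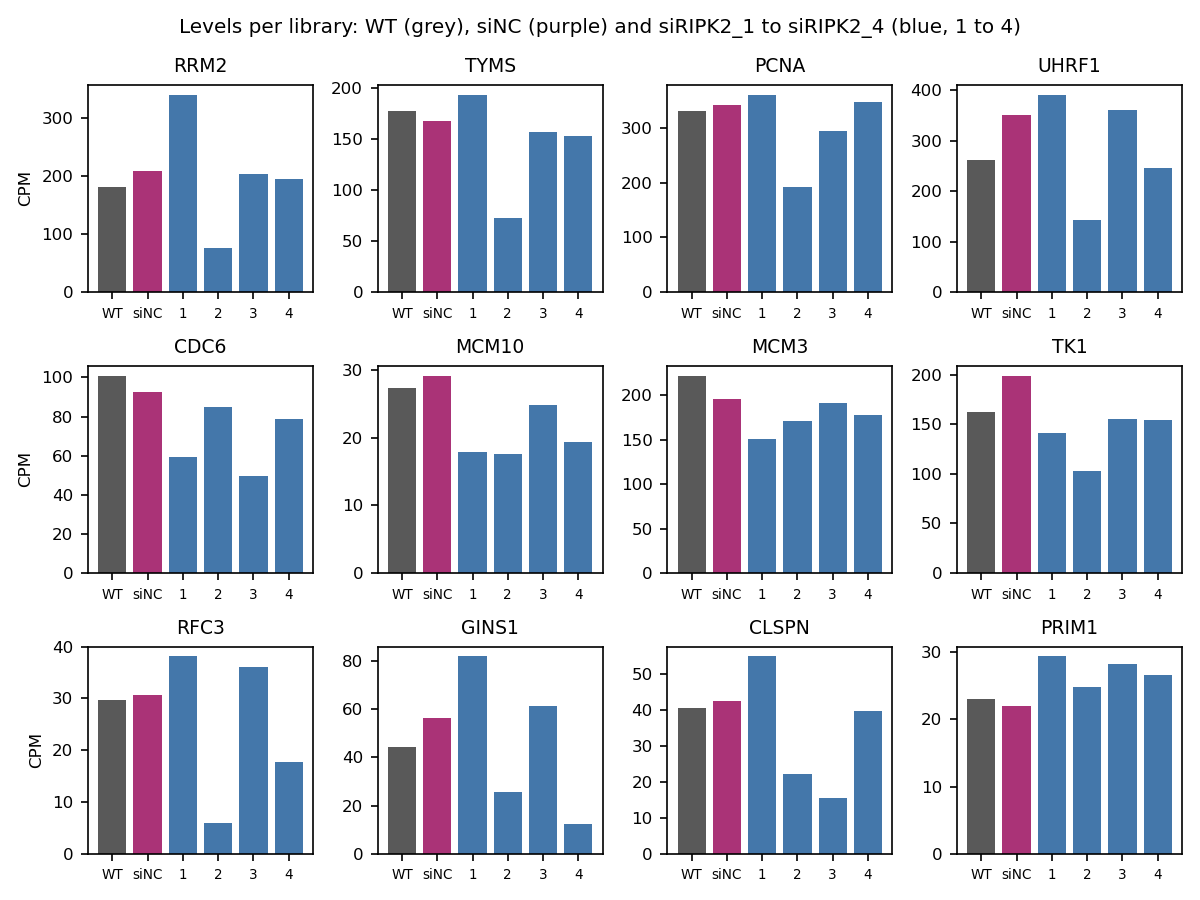
Bars give the level in CPM (vertical axis, from 0) of 12 genes in WT (grey), siNC (purple) and siRIPK2_1 to siRIPK2_4 (blue, marked 1 to 4), 1 library per bar and so with no error bar. The top row has its lowest bar in siRIPK2_2, the middle row lies below both controls in all 4 knockdown libraries, and in the bottom row RFC3, GINS1 and CLSPN are each below both controls in some knockdown libraries only, while PRIM1 stays within 22 to 29.3 CPM.

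Licensing factors did not move as a block. CDT1, which loads MCM2-7, was at 81.9 CPM in WT, 88.5 CPM in siNC and 162, 61.3, 78.6 and 70.6 CPM in siRIPK2_1 to siRIPK2_4. Its partner in loading, CDC6 (ENSG00000094804, chromosome 17, 40287633 to 40304657), went the other way in siRIPK2_1: it was at 101 CPM in WT, 92.5 CPM in siNC and 59.3, 84.7, 49.5 and 78.9 CPM in the knockdown libraries. CDC6 and GINS3 were the 2 members for which siRIPK2_2 was not below the median of the other libraries. MCM10, which helps to activate the loaded helicase, was at 27.4 and 29.2 CPM in WT and siNC and at 17.9, 17.6, 24.9 and 19.3 CPM in siRIPK2_1 to siRIPK2_4. Geminin (GMNN) was lowest in siRIPK2_2 (20.6 CPM) and highest in siRIPK2_4 (40.5 CPM). The origin recognition subunits ORC1 and ORC6 ranged from 29 to 49.3 CPM and from 16 to 25.2 CPM, each highest in siRIPK2_1.

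Within the helicase itself, 5 of the 6 MCM genes had their highest level in the same library. MCM2, MCM4, MCM5, MCM6 and MCM7 were highest in siRIPK2_1, and all of these but MCM4, which was lowest in siRIPK2_3, were lowest in siRIPK2_2. MCM6 was at 147 and 142 CPM in WT and siNC and at 161, 94.8, 137 and 131 CPM in siRIPK2_1 to siRIPK2_4. MCM7, which overlaps AP4M1, was at 279 and 317 CPM in the controls and at 356, 213, 311 and 215 CPM. MCM3 (ENSG00000112118, chromosome 6, 52264009 to 52284881) was lowest in siRIPK2_1, at 151 CPM, with 171, 191 and 178 CPM in the other knockdown libraries and 222 and 196 CPM in WT and siNC. Per kilobase of exon, the 6 subunits of this ring lay within 32.9 (MCM6) to 69.1 CPM per kb (MCM2) as means over the libraries. PCNA had the highest level per length of all members, at 212 CPM per kb, and CCNE1 the lowest, at 1.64. These lengths are unions of annotated exons, which overstate the length of a transcript where annotated isoforms are many.

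Several members departed from the rest of their library. GINS1 (ENSG00000101003, chromosome 20, 25407727 to 25452628) was at 44.3 CPM in WT, 56.2 CPM in siNC and 81.9, 25.6, 61.2 and 12.4 CPM in siRIPK2_1 to siRIPK2_4. Its low in siRIPK2_4, resting on 451 counts, lay 2.09 below the median of the other libraries on the log2 scale. The members' median deviation there was -0.04. GINS3, another subunit of the complex, was at 35.8 CPM in WT, 32.9 CPM in siNC and 42.4, 34.7, 34.5 and 15.8 CPM in the knockdown libraries, so it too was lowest in siRIPK2_4. Its fold change against both controls turned from -0.11 to 0.11 without that library. GINS4, in contrast, was at 23.1 CPM in WT, 15.9 CPM in siNC and 39, 11.2, 18.2 and 16.5 CPM in the knockdown libraries. Its high was in siRIPK2_1 and its low in siRIPK2_2. GINS2 spanned 24.8 to 36.5 CPM, and CDC45, which joins the helicase with GINS, spanned 41.4 to 64.5 CPM.

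RFC3 (ENSG00000133119, chromosome 13, 33818049 to 33966558), a clamp loader subunit, was at 29.7 and 30.7 CPM in WT and siNC and at 38.1, 6.03, 36 and 17.7 CPM in siRIPK2_1 to siRIPK2_4. In siRIPK2_2 (248 counts) it was 2.17 below the median of the other libraries on the log2 scale, against the member median of -0.55. The other loader subunits RFC2, RFC4 and RFC5 had a highest-to-lowest ratio of 1.57 to 1.73 over the 6 libraries, against 6.32 for RFC3, and PCNA one of 1.88. PCNA was at 331 and 342 CPM in the controls and at 361, 192, 295 and 348 CPM in the knockdown libraries. CLSPN (ENSG00000092853, chromosome 1, 35720218 to 35769967), which encodes claspin, a fork protein of the replication checkpoint, was at 40.6 and 42.7 CPM in the controls and at 55, 22.2, 15.7 and 39.7 CPM. Together with CDC6 and POLD3, it was 1 of 3 members more than 1.5-fold lower in siRIPK2_3 than the median of the others, against 8.97% of tested genes. GINS1, GINS3 and RFC3 were the 3 in siRIPK2_4, against 8.02%, so in both libraries the members' share was near the background. For lowest of all 6 libraries, siRIPK2_3 held 7 members, against 18.5%.

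The polymerase group had the smallest shift in siRIPK2_2. POLA1, the catalytic subunit of polymerase alpha, was at 43 and 45 CPM in WT and siNC and at 62.6, 26.6, 29.8 and 36.6 CPM in siRIPK2_1 to siRIPK2_4. Its regulatory partner POLA2 was at 91.2, 77.3, 89.4, 44.2, 77 and 111 CPM in WT, siNC and the 4 knockdown libraries in order. The primase subunit PRIM1, which overlaps NACA and HSD17B6, was the member with the least spread, at 23 and 22 CPM in the controls and 29.3, 24.8, 28.2 and 26.5 CPM in the knockdown libraries, all 4 above both controls. POLD3, an accessory subunit of polymerase delta, was at 41.4 and 50 CPM in the controls and at 41.9, 33.7, 22.1 and 47.2 CPM. Its low in siRIPK2_3, not siRIPK2_2, sets it apart from POLA1 and POLA2. The remaining polymerase genes POLD1, POLE, POLE2 and PRIM2 had highest-to-lowest ratios of 1.48 to 1.85.

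Of the maturation genes, the ligase LIG1 was at 56.7 and 61.1 CPM in the controls and at 58.1, 34.9, 49.9 and 51.1 CPM in siRIPK2_1 to siRIPK2_4. LIG1 was thus lowest in siRIPK2_2, with siRIPK2_1 between WT and siNC. RPA2, which binds single-stranded DNA, was at 37.9 and 47.7 CPM and at 57.5, 28.5, 58.3 and 41.1 CPM. Its partner RPA3, whose exons overlap UMAD1, was at 28.3 and 29.6 CPM in the controls and at 22.3, 25.1, 23.2 and 31.9 CPM, and the flap nuclease FEN1 spanned 155 to 232 CPM.

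Knockdown as a group was compared with the controls in edgeR over all genes. Against WT and siNC together, 0 of the 45 members passed an adjusted p of 0.05, as did 0 of 13901 genes (0%). At an unadjusted p under 0.05, 0 members were higher and 0 lower, against 1.32% and 1.23% of genes. The DESeq2 Wald test called 10 genes, none of them a member. The median log2 fold change of the members was -0.08, with 30 lower and 15 higher, against 0.01 over all genes. The median turned to 0.07 without siRIPK2_2 and went to -0.21 without siRIPK2_1, so its sign rested on siRIPK2_2.

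The lowest unadjusted p belonged to MCM10, whose log2 fold change was -0.51 (SE 0.235, adjusted p = 1 in edgeR). CDC6 followed at -0.50 (SE 0.255) and TK1 at -0.39 (SE 0.23), both with an adjusted p = 1 in edgeR. These genes and MCM3 were the 4 members with all 4 knockdown libraries below both controls, a pattern that 5.5% of tested genes had. PRIM1 was the 1 member above both controls in all 4, against 4.96% of tested genes. As shares of the 45 members these counts are near the background.

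**Figure D5:**
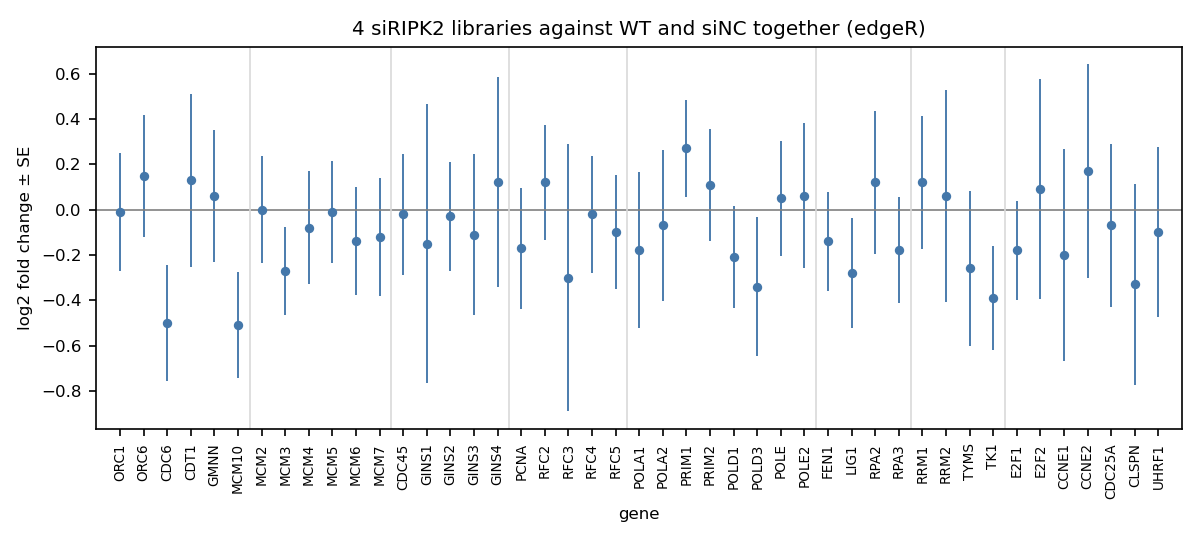
Points give the edgeR log2 fold change of each of the 45 genes in the 4 siRIPK2 libraries against WT and siNC together, and bars its SE; light vertical lines part the groups by role. MCM10 and CDC6 lie lowest, at -0.51 and -0.50, and no gene passed the adjusted threshold.

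Against siNC alone the member median was -0.06 with 29 lower, and 0 of 14306 genes passed (0%). Against WT alone it was -0.12 with 28 lower, again with 0 genes passing (0%). For siNC against WT the median was 0.05, with 25 members higher and 20 lower, and 0 genes passing (0%). These comparisons share libraries and are not independent. Each of the 3 rests on a lone control library, so no count of members at an unadjusted p is given for them. The spread over the knockdown libraries differed widely between members: the mean was 19.9 ± 3.4 CPM (SD, n = 4) for MCM10 and 204 ± 109 CPM (SD, n = 4) for RRM2.

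The other 68 replication and G1/S genes, a list held apart from the members, were described in the same way. This list too was chosen with earlier results of these data known. Of the 68, 36 were lowest in siRIPK2_2 (52.9%, against 17.5% of tested genes) and 26 highest in siRIPK2_1 (38.2%, against 20.8%). In siRIPK2_2, 15 of them stood more than 1.5-fold below the median of the other libraries (22.1%, against 7.02%). Their median deviation was -0.33 in siRIPK2_2 and 0.16 in siRIPK2_1. Cyclin A2 (CCNA2), named after its values were seen, was at 85.3 and 105 CPM in WT and siNC and at 136, 41.2, 106 and 159 CPM in siRIPK2_1 to siRIPK2_4. Against both controls, 0 of the 68 passed in edgeR, also at an unadjusted p under 0.05, and their median was 0.01. The 3 lowest p among the higher ones were DBF4, the activator of the CDC7 kinase (log2 fold change 0.67), the G1 kinase gene CDK6 (0.60) and the fork protection gene TIPIN (0.66). The 3 among the lower ones were the helicase gene MCM8 (-0.58), the dUTPase gene DUT (-0.36) and the repressor gene E2F6 (-0.33).

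Among the higher ones, DBF4 was at 15.6 CPM in WT, 14 CPM in siNC and 36, 12.7, 22.5 and 22.6 CPM in siRIPK2_1 to siRIPK2_4. CDK6 was at 55.1, 50.3, 117, 84.2, 45.2 and 73.4 CPM over the same libraries in order, and TIPIN at 20.3, 15.4, 31.9, 13.3, 34.6 and 33.5 CPM. All 3 had knockdown libraries on both sides of the controls. Among the lower ones, MCM8 was at 77.7 CPM in WT, 71.6 CPM in siNC and 76.8, 28.9, 53.2 and 40.9 CPM in siRIPK2_1 to siRIPK2_4. DUT was at 91, 102, 87.2, 61.7, 65.7 and 87.5 CPM in order, and E2F6 at 23.6, 29.5, 23.3, 16.4, 19.7 and 25.1 CPM. DUT was the only one of these 3 with all knockdown libraries below both controls, and all 3 were lowest in siRIPK2_2.

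Members with and without an E2F element were both lower in siRIPK2_2. The 23 with an element had a median deviation of -0.67 there, with a range from -2.17 to 0.10, and the 15 without had -0.48, from -1.42 to -0.09. In siRIPK2_1 the medians were 0.29 and 0.31. Of the members more than 1.5-fold lower in siRIPK2_2 that had a window, 12 of 17 held an element, and of the others 11 of 21 did. RRM2, with one of the largest separations between libraries, had none of the 4 words in its window, whereas E2F1 and CDC6, which hold them, were at deviations of -0.13 and 0.10 in siRIPK2_2. No test was made of this difference.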

How the data were processed

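The authors deposited raw counts per Ensembl gene ID for 6 libraries, and the counts are not normalised. The build was GRCh38, and the tools named are HISAT2, Trimmomatic, FastQC and bedtools, per the submitters' processing notes. Neither tool versions nor the annotation and strand setting used for counting are given there, so reads from stretches shared by overlapping genes may not be told apart. Symbols were matched for 20148 IDs, and exon lengths, positions and overlaps came from GENCODE release 29 (GRCh38), which held 20224 IDs. Promoter windows came from RefSeq (GRCh38.p14).

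Tests used edgeR 4.0.16 (R 4.3.3): TMM factors, the filterByExpr filter at 10 counts, the quasi-likelihood test and Benjamini-Hochberg adjustment over every gene tested. The SE is the fold change divided by the root of F. One fit had 2 groups (4 residual degrees of freedom) and one had 3 (3 residual degrees of freedom, all from the siRIPK2 libraries, so a lone control is assumed to vary as they do). Alternatives were DESeq2 1.42.0, RLE factors, no filter, GC and length offsets and each library left out. Levels are CPM with TMM factors. Deviations are log2(CPM + 1), pseudocount 1, minus the median of the other 5 libraries. The edgeR fits were tested on simulated counts. Every pair of libraries differed beyond sampling noise (chi-square per degree of freedom 77.1 to 224).

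Detailed values were printed for the 2 members per role group with the lowest p against both controls and the 2 with the widest range, plus the 3 lowest p per direction of the other list; further members are given by range, and some in full after their values were seen. Members and lists were chosen with earlier results of these data known. A floor of 3 counts is 0.0664 to 0.0935 CPM and covers counting error only.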

Additional observations from a re-analysis of the deposited data

How the results depend on the processing

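No member passed an adjusted p of 0.05 in any of the 4 comparisons under any of the alternatives run. Among all genes, edgeR called 0 against both controls, 0 to 2 when 1 library was left out, and DESeq2 called 10. Against siNC DESeq2 called 75, against WT 9, and for siNC against WT 11. Without a filter on low counts edgeR called 1 gene against WT. RIPK2, at a log2 fold change of -2.93 against both controls, passed in DESeq2 (-2.92, adjusted p = 1.85e-06) and in edgeR without siRIPK2_2 (-3.38, adjusted p = 0.0431). Leaving out 1 library at a time, its log2 fold change ranged from -3.38 to -2.73, and its adjusted p ranged from 1.85e-06 to 1 over all alternatives. The member median against both controls ranged from -0.21 to 0.07 with 1 library left out, and the positive value came without siRIPK2_2. Against siNC it ranged from -0.23 to 0.02 and against WT from -0.20 to 0.05, again positive without siRIPK2_2. GINS3, at -0.11 against both controls, ranged from -0.29 to 0.11 with 1 library left out, and the positive value came without siRIPK2_4, its lowest library. The correction of the levels of each library for GC content and length, and the restriction to members without exon overlap, were chosen after seeing the data. No paired analysis was possible because WT and siNC have 1 library each and carry no replicate numbers shared with the siRIPK2 libraries. Each control is 1 library, and the ratio of the highest to the lowest library ran from 1.33 (PRIM1) to 6.6 (GINS1) among the members. Known changes were planted in the simulated counts, but their recovery is not reported here. The size of change this design could detect is therefore not given.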
